A study of Homo sapiens with 8 samples.

Results

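Peroxiredoxins, thioredoxins and superoxide dismutases were followed at the level of mRNA, ribosome footprints and footprints per mRNA in cells carrying a DNMT3A mutant and in cells carrying wild-type DNMT3A. The members were 10 genes given by symbol (PRDX1 to PRDX6, TXN, TXN2, SOD1 and SOD2), found by pairing the Ensembl identifiers of the count files with symbols. Of these, 9 matched an identifier and had a value, out of 20453 identifiers counted in each library. SOD2, the manganese superoxide dismutase of mitochondria, was not analysed here, because the name table pairs it with an Ensembl identifier that the count files do not use. This is a gap in the pairing of names and says nothing about its expression in these cells.

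Peroxiredoxins are abundant peroxidases that reduce hydrogen peroxide and other peroxides with a reactive cysteine. The typical 2-cysteine enzymes, PRDX1 to PRDX4, then form a disulfide. In PRDX1, PRDX2 and PRDX3, thioredoxin reduces this disulfide with electrons that thioredoxin reductase takes from NADPH. Superoxide dismutases stand upstream, since they turn superoxide into hydrogen peroxide. The set is spread over compartments: PRDX1, PRDX2, PRDX6, TXN and most SOD1 are cytosolic, PRDX3, TXN2 and SOD2 are mitochondrial, PRDX5 is found in several compartments and PRDX4 belongs to the endoplasmic reticulum. PRDX2 is one of the most abundant proteins of red cells.

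According to their labels the cells were THP-1, an established human line of acute monocytic leukaemia, and had been transduced with the DNMT3A mutant or with wild-type DNMT3A. DNMT3A adds methyl groups to unmethylated DNA and is often mutated in acute myeloid leukaemia. RNA-seq measured mRNA, and ribosome profiling measured the mRNA fragments that ribosomes protect from nuclease. The 8 libraries formed 4 groups of 2, namely mutant mRNA, wild-type mRNA, mutant footprints and wild-type footprints. Both genotypes were transduced, so the wild-type cells also carried an introduced DNMT3A. The labels do not name the promoter of the introduced gene, the number of clones or whether replicates were separate cultures. The p-values therefore reflect spread between libraries that may be technical.

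Total counts ranged from 3901659 to 4393445 in mutant mRNA, 3415999 to 4523475 in wild-type mRNA, 603360 to 944824 in mutant footprint and 1611724 to 1988513 in wild-type footprint libraries. DNMT3A mRNA was 240.5 and 244 CPM in the mutant mRNA libraries, against 291 and 294 CPM in the wild-type mRNA libraries (log2 fold change -0.27, edgeR adjusted p = 4.27e-06). CPM here is counts per 1e6 counts of a library, scaled by TMM factors, and p-values are adjusted over all genes tested. Its footprints did not pass the test (log2 fold change -0.0026, adjusted p = 0.992). Counts of DNMT3A pool the introduced and the endogenous copy. Markers went against the monocytic label: 6 of 25 monocyte and macrophage markers averaged at least 10 CPM in each of the 4 groups, and S100A8, S100A9, FCN1, CD163, IRF8, TLR4, MPO and ELANE had no count in any of the 8 libraries. Of 22 erythroid and megakaryocyte markers, 17 to 19 reached that level, GATA1 and the gamma globin HBG2 among them. Their summed level was 3362 and 3402 CPM in mutant mRNA, against 3904 and 3958 CPM in wild-type mRNA. The lower sum was not confined to that list. The 10 epithelial and fibroblast markers, of which 4 reached 10 CPM in each group, summed to 924 and 920.4 CPM in mutant mRNA, against 1172 and 1210 CPM in wild-type mRNA, and to 692 and 679 CPM in mutant footprints, against 994 and 1052 CPM in wild-type footprints. In bulk samples of this kind, fewer cells of a type and less RNA per cell cannot be told apart.

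**Figure D1:**
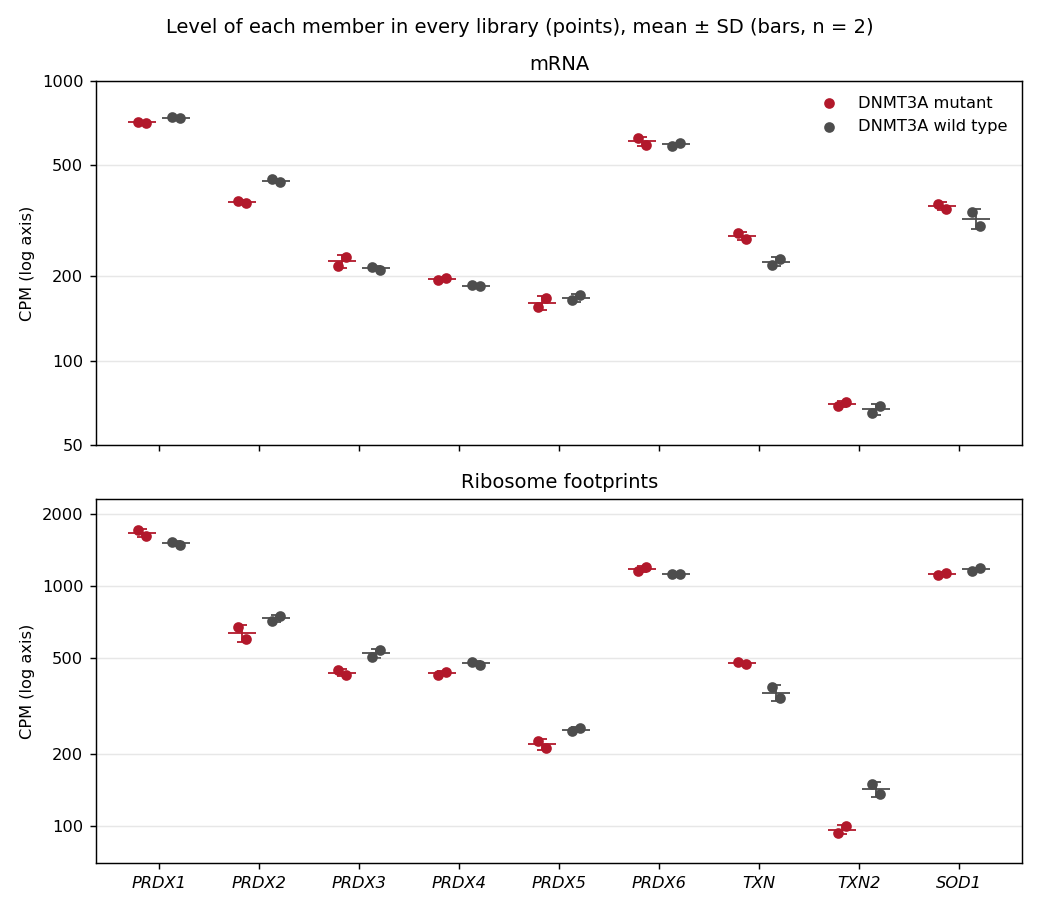
CPM (log axis) of the 9 measured members in mRNA (top) and ribosome footprints (bottom). Each point is a library, with mutant libraries left of wild-type libraries, and bars give mean ± SD (n = 2). TXN lay higher and PRDX2 lower in mutant libraries of both assays, while the TXN2 points lay apart in footprints only.

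The cytosolic thioredoxin TXN (ENSG00000136810, GRCh38 chromosome 9, 110243810 to 110256507) rose at both levels in mutant cells. It is the disulfide reductase that recycles PRDX1 and PRDX2 and also serves ribonucleotide reductase. TXN mRNA was 286 and 272 CPM in the mutant mRNA libraries, against 220.5 and 232 CPM in the wild-type mRNA libraries. This was a rise of 23.1% (log2 fold change 0.30, SE 0.0544, edgeR adjusted p = 6.09e-07). TXN footprints were 481 and 471 CPM in the mutant footprint libraries, against 378 and 339.9 CPM in the wild-type footprint libraries. Both mutant values lay above both wild-type values in each assay, and footprints rose by 33.4% (log2 fold change 0.42, SE 0.0716, edgeR adjusted p = 2.59e-06). Footprints per TXN mRNA did not pass the test (log2 fold change 0.11, edgeR adjusted p = 0.572, 95% interval -0.063 to 0.29). The footprint call was lost without mutant footprint replicate 1 (edgeR adjusted p = 0.054).

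PRDX2 (ENSG00000167815, GRCh38 chromosome 19, 12796823 to 12801800) moved the other way, falling in mRNA and in footprints. PRDX2 mRNA was 373 and 367 CPM in the mutant mRNA libraries, against 446 and 434 CPM in the wild-type mRNA libraries. Its footprints were 673 and 601 CPM in the mutant footprint libraries, against 716 and 751 CPM in the wild-type footprint libraries. The groups did not overlap in either assay. The mRNA fell by 15.8% (log2 fold change -0.25, SE 0.0467, edgeR adjusted p = 1.71e-06) and the footprints by 12.4% (log2 fold change -0.19, SE 0.0599, edgeR adjusted p = 0.0137). The summed erythroid and megakaryocyte markers were likewise lower in mutant cells, at 4419 and 4518 CPM in mutant footprints, against 5029 and 4890 CPM in wild-type footprints, and the part of any marker list in the PRDX2 result was not tested. Footprints per PRDX2 mRNA stood near 0 on the log2 scale (log2 fold change 0.052, edgeR adjusted p = 0.784, 95% interval -0.10 to 0.20). The footprint call was lost without wild-type footprint replicate 2 (edgeR adjusted p = 0.103), mutant footprint replicate 1 (0.0745) or mutant footprint replicate 2 (0.267).

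The sequences upstream of TXN and PRDX2 are shown because these members had the largest mRNA changes of the set and moved in opposite directions. They are the 250 bases before the RefSeq start (GRCh38.p14), at chr9:110256508-110256757, minus strand, and at chr19:12801801-12802050, minus strand, written 5′ to 3′ on the gene's strand. Capitals mark GC boxes (GGGCGG, or its complement CCGCCC) and the TATA box core (TATAAA), searched on both strands. In TXN, 2 overlapping matches on opposite strands make up the capitals nearest its end.
TXN: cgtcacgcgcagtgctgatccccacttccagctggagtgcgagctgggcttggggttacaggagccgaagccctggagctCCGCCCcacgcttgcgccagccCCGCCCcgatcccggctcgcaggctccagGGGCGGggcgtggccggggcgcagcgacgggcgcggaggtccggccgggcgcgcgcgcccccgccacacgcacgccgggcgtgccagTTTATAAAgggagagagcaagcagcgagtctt
PRDX2: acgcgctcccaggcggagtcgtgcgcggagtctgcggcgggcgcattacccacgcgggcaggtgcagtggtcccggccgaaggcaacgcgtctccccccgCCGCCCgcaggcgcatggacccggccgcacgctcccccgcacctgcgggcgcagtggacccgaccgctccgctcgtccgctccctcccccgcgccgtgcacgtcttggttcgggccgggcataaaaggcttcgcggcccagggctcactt
TXN held 3 GC boxes and the TATA core shortly before the start, while PRDX2 held 1 GC box and no exact match to TATAAA. Of 35116 RefSeq promoter windows of this length, 42.6% held a GC box and 10.7% a TATA core. The core of the antioxidant response element bound by NRF2 (TGACNNNGC) was in 10.9% of windows and a form of the GATA motif (AGATAA) in 9.2%. Neither was in the windows of TXN, PRDX2, PRDX3, PRDX4 or PRDX5, the members with an entry, which says only that these letters are not in these 250 bases. Other forms of the GATA motif, and variants of the GC box and TATA core, were not searched.

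PRDX1 (ENSG00000117450, GRCh38 chromosome 1, 45511051 to 45522890), the other main cytosolic 2-cysteine peroxidase, rose in footprints without a called change in mRNA. PRDX1 footprints were 1710.5 and 1616 CPM in the mutant footprint libraries, against 1532 and 1479 CPM in the wild-type footprint libraries, without overlap. They rose by 11.1% (log2 fold change 0.15, SE 0.0453, edgeR adjusted p = 0.00913). PRDX1 mRNA was 715 and 711 CPM in the mutant mRNA libraries, against 741 and 737 CPM in the wild-type mRNA libraries. The mRNA values did not overlap either, with the mutant below, but the difference did not pass the test (log2 fold change -0.052, edgeR adjusted p = 0.319). Footprints per PRDX1 mRNA rose by 14.7% (log2 fold change 0.20, SE 0.0594, edgeR adjusted p = 0.0388). Without wild-type footprint replicate 2 or mutant footprint replicate 1 both calls were lost (edgeR adjusted p = 0.0934 and 0.383 in footprints, 0.162 and 0.409 per mRNA), and the call per mRNA was also lost without wild-type mRNA replicate 1 (0.115) or 2 (0.119) and with no filter on low counts (0.0918).

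PRDX6 (ENSG00000117592, GRCh38 chromosome 1, 173477335 to 173488815), a 1-cysteine enzyme that uses glutathione rather than thioredoxin and also has phospholipase activity, was called in none of the 3 comparisons. Its mRNA was 624 and 593 CPM in the mutant mRNA libraries, against 587 and 600.0 CPM in the wild-type mRNA libraries, and the groups overlapped. Its footprints were 1149.7 and 1197 CPM in the mutant footprint libraries, against 1119 and 1119 CPM in the wild-type footprint libraries. The 95% intervals of its log2 fold change ran from -0.047 to 0.12 in mRNA (edgeR adjusted p = 0.535), -0.033 to 0.16 in footprints (adjusted p = 0.377) and -0.10 to 0.15 in footprints per mRNA (adjusted p = 0.896).

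The mitochondrial pair, TXN2 and the peroxidase PRDX3 that it recycles, fell in footprints and in footprints per mRNA. TXN2 (ENSG00000100348, GRCh38 chromosome 22, 36467046 to 36481640) had footprints of 93.5 and 99.4 CPM in the mutant footprint libraries, against 149 and 135 CPM in the wild-type footprint libraries. Every mutant value lay below every wild-type value, a fall of 32.3% (log2 fold change -0.56, SE 0.127, edgeR adjusted p = 0.000384). TXN2 mRNA was 68.9 and 71.3 CPM in the mutant mRNA libraries, against 64.9 and 68.9 CPM in the wild-type mRNA libraries, with overlapping groups (log2 fold change 0.060, edgeR adjusted p = 0.646). Footprints per TXN2 mRNA fell by 35.3% (log2 fold change -0.63, SE 0.155, edgeR adjusted p = 0.00731). TXN2 had the lowest footprint counts of the members, 90 and 61 in mutant and 237 and 263 in wild-type libraries. Without mutant footprint replicate 1 its calls were lost (edgeR adjusted p = 0.132 in footprints and 0.168 per mRNA), and DESeq2 gave adjusted p = 0.0543 and 0.0955.

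PRDX3 (ENSG00000165672, GRCh38 chromosome 10, 119167720 to 119178812) had footprints of 444 and 424 CPM in the mutant footprint libraries, against 507 and 539 CPM in the wild-type footprint libraries. These fell by 16.7% without overlap (log2 fold change -0.26, SE 0.0683, edgeR adjusted p = 0.0022). Its mRNA was 218 and 235 CPM in the mutant mRNA libraries, against 217 and 212 CPM in the wild-type mRNA libraries. Both mutant mRNA values lay above both wild-type values, by an amount that did not pass the test (log2 fold change 0.079, edgeR adjusted p = 0.276). Footprints per PRDX3 mRNA fell by 21.5% (log2 fold change -0.35, SE 0.0880, edgeR adjusted p = 0.0088). The footprint call was lost without mutant footprint replicate 1 (edgeR adjusted p = 0.101) or 2 (0.0803). The call per mRNA was lost without wild-type mRNA replicate 2 (0.0548), wild-type footprint replicate 2 (0.0627), mutant footprint replicate 1 (0.0531) or mutant footprint replicate 2 (0.0618).

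PRDX4 and PRDX5 were not called in any comparison, though both had lower footprints in each mutant library. PRDX4 (ENSG00000123131, GRCh38 chromosome X, 23667493 to 23686397), which couples peroxide removal to disulfide formation in the endoplasmic reticulum, had footprints of 427 and 438 CPM in the mutant footprint libraries, against 482 and 469.8 CPM in the wild-type footprint libraries (log2 fold change -0.14, edgeR adjusted p = 0.144). Its mRNA was 195 and 198 CPM in the mutant mRNA libraries, against 186 and 185 CPM in the wild-type mRNA libraries (log2 fold change 0.083, edgeR adjusted p = 0.281). The mutant values thus lay above in mRNA and below in footprints, and footprints per mRNA had a log2 fold change of -0.23 (95% interval -0.40 to -0.054, edgeR adjusted p = 0.141). PRDX5 (ENSG00000126432, GRCh38 chromosome 11, 64318121 to 64321811), an atypical 2-cysteine enzyme, had footprints of 226 and 210.2 CPM in the mutant footprint libraries, against 248 and 256 CPM in the wild-type footprint libraries (log2 fold change -0.20, edgeR adjusted p = 0.113). PRDX5 mRNA was 155 and 168 CPM in the mutant mRNA libraries, against 164 and 172 CPM in the wild-type mRNA libraries, and the groups overlapped (log2 fold change -0.066, edgeR adjusted p = 0.433). Footprints per PRDX5 mRNA did not pass the test (log2 fold change -0.14, edgeR adjusted p = 0.573).

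SOD1 (ENSG00000142168, GRCh38 chromosome 21, 31659693 to 31668931), the copper and zinc superoxide dismutase, rose in mRNA without a called change in footprints. Its mRNA was 365 and 348 CPM in the mutant mRNA libraries, against 341 and 304 CPM in the wild-type mRNA libraries, a rise of 11.3% without overlap (log2 fold change 0.16, SE 0.0493, edgeR adjusted p = 0.00668). Its footprints were 1115 and 1136 CPM in the mutant footprint libraries, against 1157 and 1186 CPM in the wild-type footprint libraries. Footprints lay lower in both mutant libraries by an amount that did not pass the test (log2 fold change -0.060, edgeR adjusted p = 0.419), and footprints per mRNA narrowly missed the threshold (log2 fold change -0.22, SE 0.0707, edgeR adjusted p = 0.0572). Its mRNA was no longer called without wild-type mRNA replicate 2 (edgeR adjusted p = 0.519), or without mutant mRNA replicate 1 (0.0743), or with DESeq2 (adjusted p = 0.141). Footprints per mRNA passed without wild-type mRNA replicate 1 (edgeR adjusted p = 0.0178), mutant mRNA replicate 2 (0.0256) or wild-type footprint replicate 1 (0.0355).

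**Figure D2:**
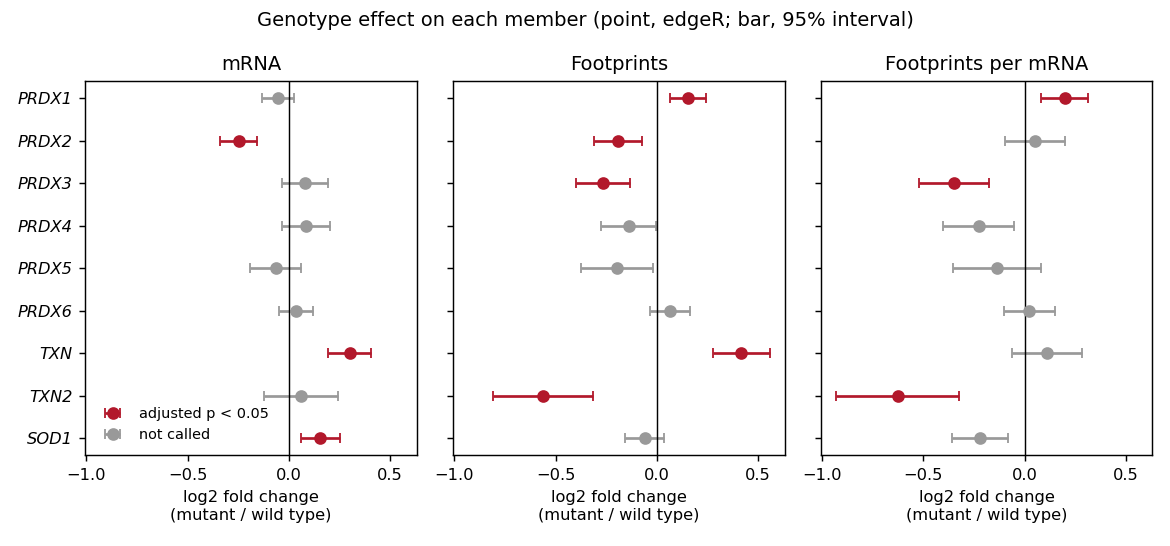
Fitted log2 fold change (mutant over wild type) of the 9 members at the 3 levels (mRNA, footprints, footprints per mRNA); points are edgeR estimates, bars 95% intervals, and red marks an adjusted p under 0.05. TXN lies to the right and PRDX2 to the left in mRNA and in footprints, whereas PRDX3 and TXN2 lie to the left only in footprints and in footprints per mRNA. PRDX4 and SOD1 also lie to the left only in footprints and in footprints per mRNA, where neither was called.

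Counted together, 3 of 9 measured members were called in mRNA (TXN and SOD1 higher, PRDX2 lower), where 37.7% of 10756 genes tested were called, with 18.9% higher and 18.9% lower. In footprints 5 of 9 were called (PRDX1 and TXN higher, PRDX2, PRDX3 and TXN2 lower), against a background of 21.2% of 9181 genes, with 10.3% higher and 10.9% lower. In footprints per mRNA 3 of 9 were called (PRDX1 higher, PRDX3 and TXN2 lower), against 4.16% of 9166 genes, with 1.67% higher and 2.49% lower. The members' median log2 fold change was 0.060 for mRNA, -0.14 for footprints and -0.14 for their ratio, beside -0.0022, 0.0055 and -0.00096 over all genes tested. All 9 members passed the filter on low counts in both assays. Mutant and wild-type values did not overlap for 6 of 9 members in mRNA, 4 with the mutant above and 2 with it below, where 67.9% of all genes tested were separated (33.9% above and 33.9% below). In footprints they did not overlap for 9 of 9 members, 3 with the mutant above and 6 below, where 58.8% of genes were separated (29.4% above and 29.3% below). DESeq2 called 2 of 9 members in mRNA (TXN and PRDX2), 1 in footprints (TXN) and 0 in footprints per mRNA. With the spread set to a biological coefficient of variation of 10%, in place of the estimated 2.25% in mRNA, 1.92% in footprints and 2.17% over both, 0 of 9 members were called in each comparison. Without mutant footprint replicate 1 the only mutant footprint library is the shallowest of the 8, and then 0 of 9 members were called in footprints or in footprints per mRNA.

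Most of these genes have pseudogenes, RefSeq listing 7 named for TXN, 4 each for PRDX2 and PRDX3, 3 for SOD1, 2 for PRDX4 and 1 each for PRDX1, PRDX5 and TXN2. It is not known here how reads matching several places were counted, so the counts of these members are uncertain to that extent. PRDX1 overlaps MMACHC and PRDX5 overlaps TRMT112 in RefSeq, and without a stated strand setting the reads of such neighbours cannot be told apart.

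The set took a larger share of footprints than of mRNA in both genotypes. The 9 members took 0.304% and 0.298% of counts in mutant mRNA and 0.294% and 0.291% in wild-type mRNA, but 0.644% and 0.63% in mutant footprints and 0.619% and 0.615% in wild-type footprints. The fitted ratio of footprints to mRNA, each scaled to its own library totals, was above 1 for all 9 members in both genotypes. The lowest of these, that of PRDX5, was at or above that of 72% of genes tested in mutant and 76.9% in wild-type cells. SOD1 led with 3.11 in mutant cells (95% interval 2.89 to 3.35) and 3.63 in wild-type cells (3.41 to 3.87), a ratio at or above that of 98.9% of genes tested in mutant and 99.3% in wild-type cells. PRDX1 was next in the mutant order, and had 2.32 in mutant cells (95% interval 2.18 to 2.46) and 2.02 in wild-type cells (1.91 to 2.13). PRDX4 was next in the wild-type order, and had 2.17 in mutant cells (95% interval 1.97 to 2.39) and 2.55 in wild-type cells (2.36 to 2.75).

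TXN2 had 1.35 in mutant cells (95% interval 1.13 to 1.62) and 2.09 in wild-type cells (1.85 to 2.37) and so was number 8 of the members in mutant and number 4 in wild-type cells. PRDX3 had 1.91 in mutant cells (95% interval 1.73 to 2.10) and 2.43 in wild-type cells (2.25 to 2.62). PRDX5 had the lowest ratio in both, with 1.35 in mutant cells (95% interval 1.19 to 1.53) and 1.49 in wild-type cells (1.36 to 1.63). The interval of SOD1 lay apart from that of the next member in both genotypes, while the intervals of every other pair of neighbours in the order overlapped. Footprints arise mainly from the coding sequence and mRNA reads from the whole transcript. The level of each ratio, the order between genes and the set's share of footprints therefore also carry the share of each transcript that is coding. That coding share was not measured here.

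**Figure D3:**
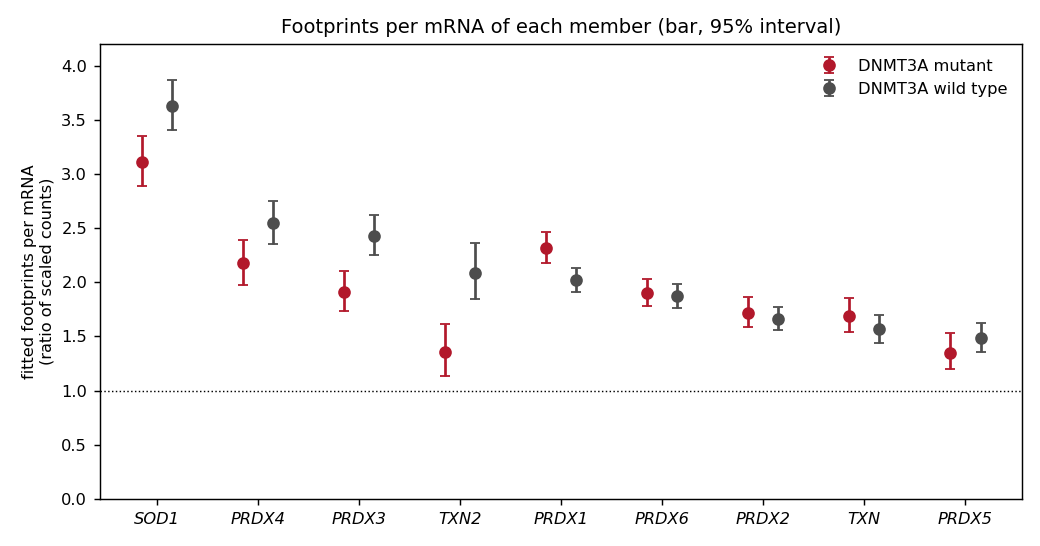
Fitted footprints per mRNA (ratio of scaled counts) of the 9 members, ordered by the wild-type value, with mutant points left of wild-type points and bars giving 95% intervals. SOD1 stands above the other members in both genotypes, at 3.11 in mutant and 3.63 in wild-type cells, and the intervals of SOD1, PRDX3, TXN2 and PRDX1 do not overlap between genotypes, although the adjusted p of SOD1 missed the threshold.

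The mRNA differences were related to how many genes lie nearby. Across all genes tested, the log2 fold change in mRNA had a Spearman correlation of -0.43 with the number of protein-coding genes starting within 500 kb (10616 genes measured in the same 4 libraries, given as a description), and footprints one of -0.29. TXN and SOD1, which were higher in mutant mRNA, have 5 and 4 such genes, whereas PRDX2 has 41. PRDX5 has 34, yet its mRNA was not called (log2 fold change -0.066, edgeR adjusted p = 0.433). Once a smooth trend with this number was removed from each library, 1 of 9 members was called in mRNA, namely TXN (log2 fold change 0.13, edgeR adjusted p = 0.0411). Calls also fell over all genes, to 2856 of 10616 tested, against 4060 of 10756 before. PRDX2 was then called neither in mRNA (log2 fold change -0.037, edgeR adjusted p = 0.554) nor in footprints (log2 fold change -0.034, edgeR adjusted p = 0.735). SOD1 mRNA turned in sign (log2 fold change -0.013, edgeR adjusted p = 0.87). PRDX5 mRNA stayed uncalled (log2 fold change 0.11, edgeR adjusted p = 0.153).

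In footprints the calls of TXN (log2 fold change 0.28, edgeR adjusted p = 0.00373), PRDX1 (log2 fold change 0.18, edgeR adjusted p = 0.00151), PRDX3 (log2 fold change -0.33, edgeR adjusted p = 0.000327) and TXN2 (log2 fold change -0.57, edgeR adjusted p = 0.00095) remained. PRDX4 (log2 fold change -0.20, edgeR adjusted p = 0.0247) and SOD1 (log2 fold change -0.20, edgeR adjusted p = 0.00108) were then called lower as well. This made 6 of 9 members called in footprints, where 1500 of 9086 genes tested were called, against 1950 of 9181 before. Footprints per mRNA were little affected, since PRDX1 (log2 fold change 0.20, edgeR adjusted p = 0.0192), PRDX3 (log2 fold change -0.32, edgeR adjusted p = 0.0171) and TXN2 (log2 fold change -0.61, edgeR adjusted p = 0.00864) stayed called and all other members uncalled. The part of gene density in these differences beyond this comparison was not tested.

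**Figure D4:**
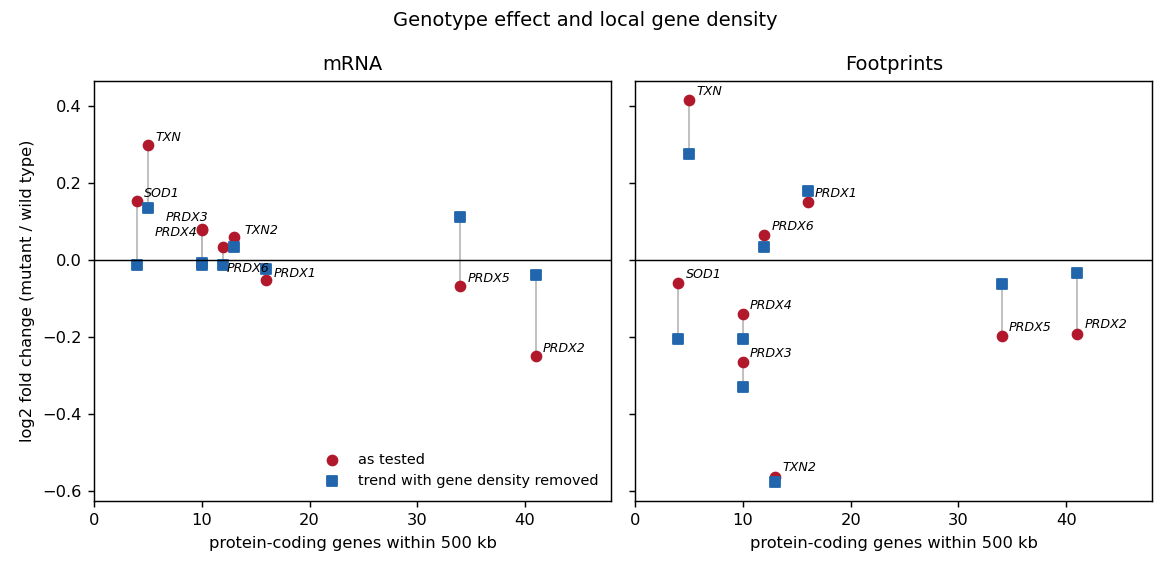
Log2 fold change (mutant over wild type) of each member against the number of protein-coding genes within 500 kb, in mRNA (left) and footprints (right); red circles give the values as tested and blue squares those after the trend with gene density was removed. PRDX2, with 41 such genes, moves to -0.037 in mRNA and -0.034 in footprints, while TXN2 stays at -0.57 in footprints.

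Partners of the thioredoxin system were read from a list of 19 genes of reductases, repair enzymes and inhibitors. In mRNA 5 of 18 tested rose and 3 fell (median log2 fold change 0.086). In footprints 1 of 15 rose, and in footprints per mRNA 1 of 15 rose. Of all genes tested, 18.9% were called higher and 18.9% lower in mRNA, 10.3% and 10.9% in footprints, and 1.67% and 2.49% per mRNA. By edgeR no gene of this list fell in footprints or per mRNA, where 1 and 2 genes were lower at an unadjusted p under 0.05 and DESeq2 called 0 in either. SESN2, a stress-induced sestrin that also senses leucine, had mRNA of 107 ± 3.41 CPM in mutant and 141 ± 3.40 CPM in wild-type mRNA libraries (SD, n = 2 each), a fall (log2 fold change -0.40, SE 0.0715, edgeR adjusted p = 4.17e-07). Footprints per SESN2 mRNA rose (log2 fold change 0.54, edgeR adjusted p = 0.00485), a call lost without mutant footprint replicate 2 (edgeR adjusted p = 0.282). TXNIP, which binds and inhibits thioredoxin, rose in mRNA (log2 fold change 0.16, edgeR adjusted p = 0.00118) and in footprints (log2 fold change 0.19, edgeR adjusted p = 0.0312). TXNIP mRNA was not called without wild-type mRNA replicate 1 (edgeR adjusted p = 0.0884), and its footprints were not called without wild-type footprint replicate 2, mutant footprint replicate 1 or mutant footprint replicate 2 (adjusted p between 0.128 and 0.236).

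The thioredoxin-like genes TXNDC17 (log2 fold change 0.46, edgeR adjusted p = 0.000633) and TXNDC12 (log2 fold change 0.27, edgeR adjusted p = 0.00591) rose in mRNA. Both calls were lost without wild-type mRNA replicate 2 (edgeR adjusted p = 0.0546 and 0.147), and that of TXNDC12 also without mutant mRNA replicate 1 (0.294). The reductases of the cytosolic and mitochondrial thioredoxins are named as partners of TXN and TXN2, after their values were seen. TXNRD1 mRNA rose (log2 fold change 0.16, edgeR adjusted p = 0.0165) and TXNRD2 mRNA fell (log2 fold change -0.21, edgeR adjusted p = 0.00692), calls that ended without wild-type mRNA replicate 2 (edgeR adjusted p = 0.129 and 0.105) and once the density trend was removed (log2 fold change 0.073 and -0.10, adjusted p = 0.337 and 0.238). The TXNRD1 call also ended without wild-type mRNA replicate 1 (0.106), or without mutant mRNA replicate 2 (0.0709). Neither reductase was called in footprints (edgeR adjusted p = 0.141 and 0.733) or per mRNA (0.988 and 0.65).

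Among 18 genes of glutathione, glutaredoxins and catalase, 4 of 14 tested rose and 3 fell in mRNA (median log2 fold change 0.034). In footprints 2 of 15 rose and 4 fell (median -0.065), and 2 of 14 fell in footprints per mRNA (median -0.091). Per mRNA 0 rose by edgeR, with 1 higher at an unadjusted p under 0.05 and 0 called higher by DESeq2. The shares over all genes tested were 18.9% higher and 18.9% lower in mRNA, 10.3% and 10.9% in footprints, and 1.67% and 2.49% per mRNA. GPX4, the selenoenzyme that reduces lipid peroxides, had footprints of 484 and 577 CPM in the mutant footprint libraries, against 849 and 969 CPM in the wild-type footprint libraries. The groups did not overlap and its footprints fell by 42.8% (log2 fold change -0.81, SE 0.0636, edgeR adjusted p = 1.15e-20), as did footprints per GPX4 mRNA (log2 fold change -0.65, SE 0.0838, edgeR adjusted p = 2.14e-08). Both calls held with each library left out in turn, with DESeq2 and after removal of the density trend. GPX4 mRNA fell less (log2 fold change -0.16, edgeR adjusted p = 0.00396), a call absent without wild-type mRNA replicate 2 (edgeR adjusted p = 0.131), or without mutant mRNA replicate 1 (0.0995). It turned in sign once the density trend was removed (log2 fold change 0.072, edgeR adjusted p = 0.223).

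The cytosolic glutaredoxin GLRX3 (log2 fold change 0.33, edgeR adjusted p = 5.21e-05) and the microsomal transferase MGST1 (log2 fold change 0.35, edgeR adjusted p = 0.000648) rose in mRNA. Both calls were lost once the density trend was removed (log2 fold change 0.16 and 0.19, edgeR adjusted p = 0.078 and 0.104). The glutathione transferase GSTP1 fell in mRNA (log2 fold change -0.15, edgeR adjusted p = 0.000397), with mRNA of 1016 ± 26.4 CPM in mutant and 1128 ± 8.98 CPM in wild-type mRNA libraries. It was no longer called when wild-type mRNA replicate 2 was left out (edgeR adjusted p = 0.0823), and its sign turned once the density trend was removed (log2 fold change 0.017, edgeR adjusted p = 0.724).

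NRF2, encoded by NFE2L2, is the transcription factor that drives many antioxidant genes, TXN and PRDX1 among them. Of 16 regulators and targets, 3 of 15 tested rose and 8 fell in mRNA (median log2 fold change -0.19), where 18.9% of all genes tested were called higher and 18.9% lower. In footprints 2 rose and 5 fell (median -0.18), where 10.3% of all genes were called higher and 10.9% lower. In footprints per mRNA 1 rose and 1 fell (median -0.078), where 1.67% of all genes were called higher and 2.49% lower. DESeq2 called 1 higher and 4 lower in mRNA, and 0 higher and 2 lower in footprints. Among the genes that fell in mRNA, 53 protein-coding genes lay within 500 kb of FTL, 45 of TALDO1, 43 of MAFG and 36 of KEAP1, against a median of 13. Others that fell lay near that median, with 14 such genes for SQSTM1 and 12 for both MAFK and TKT. FTL, MAFG, KEAP1, SQSTM1 and MAFK are named after their values were seen. The part of gene density in the falls of this list was not tested. The pentose phosphate enzyme TALDO1 had footprints of 929 ± 5.12 CPM in mutant and 1273 ± 41.1 CPM in wild-type footprint libraries and fell in them (log2 fold change -0.45, edgeR adjusted p = 3.05e-12) and in mRNA (log2 fold change -0.24, edgeR adjusted p = 1.12e-07). The transketolase TKT fell in mRNA (log2 fold change -0.19, edgeR adjusted p = 5.3e-05), but was no longer called without wild-type mRNA replicate 2 (edgeR adjusted p = 0.0597). The malic enzyme ME1, which makes NADPH, rose in mRNA (log2 fold change 0.38, edgeR adjusted p = 8.33e-05). Removal of the density trend ended the mRNA call of TALDO1 (log2 fold change -0.012, edgeR adjusted p = 0.842).

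In the list of superoxide sources and copper delivery, 1 of 7 tested rose and 2 fell in mRNA, and 1 of 5 fell in footprints. Over all genes tested, 18.9% were called higher and 18.9% lower in mRNA, 10.3% and 10.9% in footprints, and 1.67% and 2.49% per mRNA. In footprints per mRNA edgeR called 0 of 5, with 2 at an unadjusted p under 0.05, and DESeq2 called 0. CYBA, the p22phox subunit of NADPH oxidase, had footprints of 359.8 ± 5.01 CPM in mutant and 495 ± 26.3 CPM in wild-type footprint libraries and fell (log2 fold change -0.47, edgeR adjusted p = 1.74e-07). RAC2, the small GTPase of the phagocyte oxidase, fell in mRNA (log2 fold change -0.27, edgeR adjusted p = 0.000534), a call lost after removal of the density trend (log2 fold change -0.14, edgeR adjusted p = 0.0934). The copper importer SLC31A1 rose in mRNA (log2 fold change 0.33, edgeR adjusted p = 0.0092), a call absent without wild-type mRNA replicate 2 (edgeR adjusted p = 0.48), or without mutant mRNA replicate 1 (0.0897).

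Of 9 enzymes of oxidative folding in the endoplasmic reticulum, where PRDX4 acts, 2 of 7 tested rose and 2 fell in mRNA, and 1 of 8 rose and 2 fell in footprints. The shares over all genes tested were 18.9% higher and 18.9% lower in mRNA, 10.3% and 10.9% in footprints, and 1.67% and 2.49% per mRNA. In footprints per mRNA edgeR called 0 of 7, with 1 at an unadjusted p under 0.05, and DESeq2 called 0. The oxidases ERO1A (log2 fold change 0.33, edgeR adjusted p = 0.000363) and ERO1B (log2 fold change 0.50, edgeR adjusted p = 0.00401) rose in mRNA, and the disulfide isomerases P4HB (log2 fold change -0.19, edgeR adjusted p = 4.3e-05) and PDIA4 (log2 fold change -0.15, edgeR adjusted p = 0.00312) fell. ERO1A footprints lay higher in both mutant libraries (log2 fold change 0.41). ERO1B footprints lay lower in both, by an amount that did not pass the test (log2 fold change -0.33, edgeR adjusted p = 0.342). Without wild-type mRNA replicate 2 the calls of ERO1A, ERO1B and PDIA4 were lost (edgeR adjusted p = 0.0723, 0.293 and 0.238), and that of ERO1B also without mutant mRNA replicate 1 (0.0698). P4HB turned in sign once the density trend was removed (log2 fold change 0.025, edgeR adjusted p = 0.642). Removal of that trend also left the mRNA of ERO1B (log2 fold change 0.36, edgeR adjusted p = 0.0716) and of TXNDC12 (log2 fold change 0.20, edgeR adjusted p = 0.0687) no longer called, with most of each log2 fold change kept.

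Of the calls of list genes given above, DESeq2 did not make those in mRNA of TXNDC17, TXNDC12, TXNRD1, TXNRD2, GPX4, MGST1, RAC2, SLC31A1, ERO1A, ERO1B and PDIA4 (DESeq2 adjusted p between 0.0517 and 0.197), of TXNIP in footprints (0.248) and of SESN2 per mRNA (0.0593). With a coefficient of variation of 10% in place of the estimate, GPX4 in footprints was the one call of these genes that remained (edgeR adjusted p = 0.000273). All of these comparisons share their libraries with those of the members.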

How the data were processed

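The 8 libraries, 2 per genotype and assay, each had a table of whole-number counts per Ensembl gene, deposited by the authors without normalization. Per the submitters' processing notes, cutadapt, Trimmomatic, Bowtie2, STAR and featureCounts were used with builds hg38 and GRCh38. No source used here gives their settings for strand or for reads that match several places. Of 20453 identifiers, 20407 were paired with a symbol from a name table, and coordinates come from RefSeq on GRCh38.p14. Sequences and pseudogene counts are also from RefSeq.

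Counts were tested with edgeR 4.0.16 (quasi-likelihood, TMM factors within each assay, filterByExpr), and footprints per mRNA as the interaction of genotype and assay over all 8 libraries. P-values were adjusted by Benjamini-Hochberg over all genes tested and called under 0.05. The SE was derived from the F statistic, and 95% intervals span 1.96 SE. A floor of 3 counts corresponds to 0.663 to 0.878 CPM in mRNA and 1.51 to 4.97 CPM in footprints, for counting error only. The procedure was tested on simulated data with 200 changed genes, folds of 1.5 and 2 and a biological coefficient of variation of 0.02. That simulation does not cover smaller folds or a larger spread between libraries. Alternatives were RLE factors, DESeq2 1.42.0, no filter, a replicate block, an assumed biological coefficient of variation of 10%, removal of a lowess trend with local gene density, and leaving out each library.

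Members and gene lists were chosen with earlier results of these data known. All members with a value are named, with DNMT3A and, from each of 5 lists, up to 4 genes called in at least 1 comparison by smallest adjusted p. A gene that this rule names is not reported here.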

Additional observations from a re-analysis of the deposited data

How the results depend on the processing

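RLE factors left every member call in place. DESeq2 called 1467 genes in mRNA, 397 by footprints and 132 by footprints per mRNA, against 4060, 1950 and 381 by edgeR, and of the members 2, 1 and 0. In footprints the share of called genes that were higher was 33.5% with DESeq2, against 48.5% with edgeR. With the assumed coefficient of variation of 10% the counts were 313, 288 and 13 genes and 0 members in each. With the density trend removed 2856 genes were called in mRNA, 1500 by footprints and 387 by footprints per mRNA, and of the members 1, 6 and 3. The log2 fold changes in mRNA of SOD1 (-0.013), GPX4 (0.072), GSTP1 (0.017) and P4HB (0.025) then turned in sign. The causes were not tested.

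With each library left out in turn, the genes called ranged from 2280 to 3838 in mRNA, from 274 to 1799 by footprints and from 142 to 448 per mRNA, and the members called from 2 to 3, 0 to 5 and 0 to 4. A lone library was assumed to vary like the other group. The lowest counts came without wild-type mRNA replicate 2 in mRNA and without mutant footprint replicate 1 in the other comparisons.

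Replicate numbers were not treated as pairs, since the labels do not say that a number marks a shared culture or day. Deviations of same-numbered libraries correlated by 0.056 in mRNA and 0.033 in footprints, given as a description. With a replicate block 4168, 2076 and 508 genes and 3, 5 and 4 members were called, the added member being SOD1 in footprints per mRNA (edgeR adjusted p = 0.0188), which also passed without the filter on low counts (0.0439).

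Depth is one limit of the footprint comparisons, as the mutant libraries held 603360 and 944824 counts.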
